A study of Mus musculus with 24 samples.

Results

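The 12 wild-type (WT) libraries out of the 24 in the series were compared here: bulk RNA of regulatory T cells (Tregs) and of B cells, each sorted from tumours and from draining lymph nodes. They were chosen by their labels alone, with 3 libraries in each of 4 groups: tumour Tregs, lymph node Tregs, tumour B cells and lymph node B cells. All the mice bore B16-F0 melanoma, a transplantable mouse tumour line. WT stands for Foxp3-Cre mice, called Foxp3-Cre-YFP in the series title, so the control animals also carried Cre under the control of Foxp3, the transcription factor that defines Tregs. The other 12 libraries, with the same 4 groups, are labelled KO and came from Foxp3-Cre Appl2 f/f mice; they served only as a second set in which to look at the same contrasts. The labels give neither the age and sex of the mice nor the sort gates. No label says whether replicates were separate animals, so every p-value measures the spread between these libraries, which may be technical.

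Lymphocytes that circulate through lymph nodes carry the receptor CCR7, which helps to bring them in through specialised venules, and the receptor S1PR1, which takes them out again. In tumours, oxygen is often low, and the factor HIF-1 then switches on the genes of glycolysis and of blood vessel growth. Tregs restrain other immune cells and accumulate in many tumours, whereas B cells divide mainly in the germinal centres of lymph nodes and can become antibody-secreting plasma cells.

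For each gene the tissue effect was the log2 fold change of tumour over lymph node within 1 cell type, and the interaction was the Treg tissue effect minus the B cell tissue effect. Positive interactions therefore mean that the tumour level, relative to the lymph node level, was higher in Tregs than in B cells. All values come from edgeR's quasi-likelihood test on the counts of the 12 WT libraries, adjusted by the Benjamini-Hochberg method over the 15873 genes tested, and a gene was called at an adjusted p under 0.05. Levels are CPM (counts brought to a common library size with TMM scaling), which compare libraries for a given gene but not genes with each other, and errors of log2 values are standard errors. A gene was classed as alike when both tissue effects were called with the same sign, as opposite when both were called with opposite signs and the interaction was called, and as changed in one cell type only when that cell type's effect and the interaction were called and the other effect was not.

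The libraries held between 6245822 and 13347141 counts, with 18864 to 20507 genes detected and 0.642% to 0.924% of counts from mitochondrial genes. Tumour B cell replicate 2 stood apart from its group, with a chi-square per gene of 7.42 and 6.85 against the other replicates, which differed from each other by 3.01. Lymph node Treg replicates 1 and 3 differed by 5.6, while replicate 2 differed by 3.06 from replicate 1 and by 3.87 from replicate 3. The labels for cell type held. Foxp3 stood at 489, 483 and 458 CPM in tumour Tregs and at 354, 378 and 371 CPM in lymph node Tregs, against no more than 12.9 CPM in any B cell library. The 14 B lineage markers summed to 5620 to 5740 CPM in tumour B cells and to 6940 to 7020 CPM in lymph node B cells, against 63.4 to 64.2 CPM in tumour Tregs and 239 to 260 CPM in lymph node Tregs. In bulk RNA, fewer cells of a type and less RNA per cell cannot be told apart.

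Markers of other cells moved with tissue in both cell types. The 11 melanoma markers summed to 2870 to 3100 CPM in tumour Tregs against 25.1 to 90.9 CPM in lymph node Tregs, and to 791 to 910 CPM in tumour B cells against 16.4 to 21.8 CPM in lymph node B cells; none of them was at 0 in either tumour group. The 10 macrophage and monocyte markers summed to 23.2 to 29.3 CPM in tumour Tregs, against 38.8 to 40.4 CPM in lymph node Tregs, and to 182 to 199 CPM in tumour B cells, against 24.4 to 30 CPM in lymph node B cells. Globin and other erythroid markers reached 194 to 196 CPM in tumour Tregs and 515 to 706 CPM in tumour B cells, against 3.74 to 5.76 CPM in lymph node Tregs and 4.64 to 5.76 CPM in lymph node B cells. The 10 markers of CD8 T and NK cells summed to 47.3 to 57.2 CPM in tumour Tregs against 20.2 to 26.3 CPM in lymph node Tregs. Stromal and endothelial markers went the other way, with 119 to 126 CPM in tumour Tregs against 346 to 407 CPM in lymph node Tregs, and 243 to 253 CPM in tumour B cells against 338 to 367 CPM in lymph node B cells. B lineage markers in tumour Tregs were at a median of 0.134% of their level in tumour B cells, and at 1.08% in lymph node Tregs relative to lymph node B cells. T lineage markers in tumour B cells were at a median of 0.69% of their level in tumour Tregs, and at 1.61% in lymph node B cells relative to lymph node Tregs. Single B lineage markers ranged from 0% to 4.22% in tumours and from 0.627% to 13.8% in lymph nodes. For single T lineage markers the ranges were 0.167% to 21.9% and 0.686% to 23.7%. Shares of Treg or B cell RNA given below use the medians, so they are rough. The part of other cells in the results was not tested, except where a value is given beside a result.

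**Figure D1:**
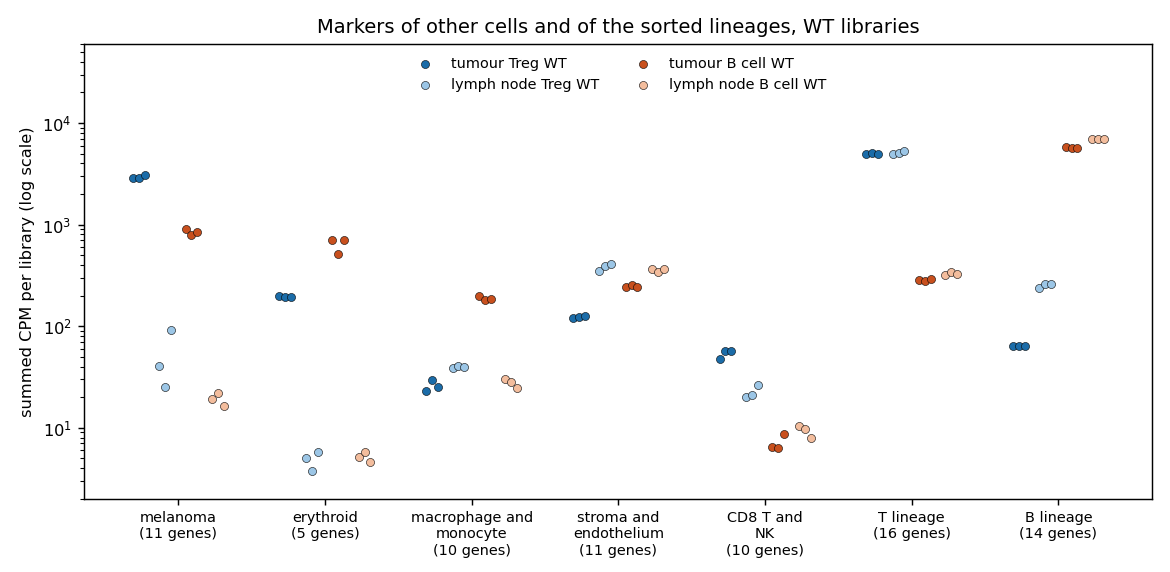
Summed levels of marker lists of other cells in each of the 12 WT libraries (CPM, log axis). Within each list, tumour Tregs, lymph node Tregs, tumour B cells and lymph node B cells run from left to right. Melanoma markers reached 2870 to 3100 CPM in tumour Tregs and 791 to 910 CPM in tumour B cells, and macrophage markers were highest in tumour B cells, at 182 to 199 CPM.

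Many genes differed between tumour and lymph node libraries in each cell type, and a large share of them differed in another way in the other cell type. Between tumour and lymph node, 5606 genes (35.3% of those tested) were called in Tregs, 2582 higher (16.3%) and 3024 lower (19.1%). In B cells 4750 genes (29.9%) were called, 2489 higher (15.7%) and 2261 lower (14.2%). Counts of list members below are to be read beside these shares. The interaction was called for 3598 genes (22.7%), of which 1554 had the higher tissue effect in Tregs (9.79%) and 2044 in B cells (12.9%). Which of these was the more frequent depended on the processing: the higher and lower counts were 1620 and 1963 with upper-quartile scaling, 1825 and 1910 with DESeq2, 1955 and 1731 with no filter on low counts, and 1828 and 1770 with counts divided by 2. Alike genes numbered 2055 (12.9%), with 1052 up (6.63%) and 1003 down (6.32%). Of these, 1537 (9.68%) had no called interaction, and 518 (3.26%) moved the same way by sizes that differed. An interaction that was not called does not show that the effects were equal.

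In Tregs only, 1359 genes changed (8.56%), of which 557 were higher (3.51%) and 802 lower (5.05%) in the tumour. In B cells only, 1001 changed (6.31%), of which 506 were higher (3.19%) and 495 lower (3.12%). Opposite changes were found for 592 genes (3.73%), 225 of them (1.42%) higher in tumour Tregs and lower in tumour B cells, and 367 (2.31%) the reverse. A further 1600 genes (10.1%) were called in Tregs and 1102 (6.94%) in B cells without a called interaction or a call in the other cell type, so they belong to no class. In both cell types, 9271 genes reached a mean of 5 CPM in at least 1 tissue. Among these, 634 were alike up (6.84%) and 855 alike down (9.22%), 428 were higher (4.62%) and 612 lower (6.6%) in Tregs only, 312 were higher (3.37%) and 430 lower (4.64%) in B cells only, and 201 (2.17%) and 262 (2.83%) were opposite with Tregs up and with B cells up. As a description, the tissue effects of 9251 of these genes had a Pearson r of 0.48 and a Spearman rho of 0.291 between the cell types; these effects come from separate libraries, and the genes are not independent replicates.

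**Figure D2:**
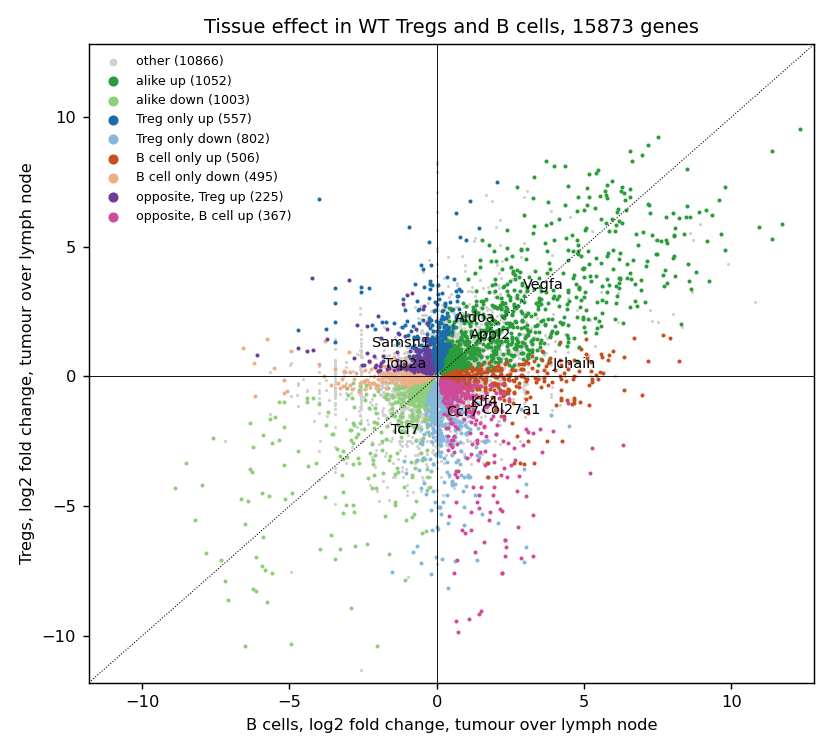
Tissue effect of each tested gene in Tregs (vertical axis, log2 tumour over lymph node) against that in B cells (horizontal axis), coloured by class. The 2055 alike genes lie in the upper right and lower left quadrants and the 592 opposite genes in the other quadrants.

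Glycolysis genes rose in both cell types, most of them by more in Tregs, and hypoxia response genes did so in part. All 17 glycolysis genes rose in tumour Tregs, 15 of 17 rose in tumour B cells, and the interaction was called higher for 14 and lower for none. Their median tissue effect was 1.25 in Tregs and 0.39 in B cells on the log2 scale, against medians of -0.034 and 0.0099 over all genes tested. Of 23 hypoxia response genes, 16 rose and none fell in Tregs, while 15 rose and 2 fell in B cells. Of these 23, 9 were alike and higher and 2 were opposite, and the interaction was called higher for 10 and lower for 3.

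Vegfa, the growth factor for blood vessels, was among the genes that rose alike. It stood at 62, 60.1 and 54.2 CPM in tumour Tregs, against 5.46, 6.49 and 7.74 CPM in lymph node Tregs. B cells had 58.1, 77.8 and 57.5 CPM in tumours, against 11.2, 8.08 and 9.82 CPM in lymph nodes. Every tumour library exceeded every lymph node library in both cell types. The log2 effects were 3.15 ± 0.14 in Tregs and 2.73 ± 0.14 in B cells, and the interaction of 0.42 ± 0.21 was not called (edgeR, adjusted p = 0.156).

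Aldoa, the glycolytic aldolase, rose in both but by far more in Tregs. It stood at 705, 713 and 738 CPM in tumour Tregs, against 179, 192 and 206 CPM in lymph node Tregs. In B cells the levels were 240, 218 and 212 CPM in tumours, against 166, 164 and 171 CPM in lymph nodes. Neither pair of groups overlapped. The log2 effects were 1.90 ± 0.06 and 0.42 ± 0.06, with an interaction of 1.48 ± 0.08 (edgeR, adjusted p = 5.4e-13). The enzymes Pgk1, Eno1 and Tpi1 had the same order, with interactions of 1.22 ± 0.11, 1.11 ± 0.09 and 1.14 ± 0.10. The lactate exporter Slc16a3 did not: its effects were 1.96 in Tregs and 2.49 in B cells, where it was at most 7.05 CPM, and its interaction was not called.

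Bnip3, a mitophagy receptor and HIF-1 target, rose by 3.31 ± 0.13 in Tregs and 1.31 ± 0.14 in B cells, with an interaction of 2.00 ± 0.19 (edgeR, adjusted p = 9.8e-09); 22.3% of its exon length overlaps another gene. Ero1a, an oxidase of the endoplasmic reticulum, rose by 1.73 ± 0.08 in Tregs and 1.16 ± 0.10 in B cells. Hif1a itself, the oxygen-sensitive subunit, rose in Tregs only. It stood at 1178 ± 11.8 CPM in tumour Tregs against 469 ± 2.69 CPM in lymph node Tregs, and at 146 ± 7.42 CPM in tumour B cells against 154 ± 0.827 CPM in lymph node B cells (SD, n = 3 each), with an interaction of 1.41 ± 0.07. Bhlhe40, a repressor induced by low oxygen, rose by 2.07 ± 0.06 in Tregs and fell by 0.34 on the log2 scale in B cells. Ddit4, an inhibitor of the growth kinase mTORC1, likewise rose by 0.92 ± 0.10 in Tregs, and its B cell effect was -0.59 ± 0.15.

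For the 10 melanoma markers tested, the excess of tumour over lymph node CPM was 2.61 to 6.1 times as large in Tregs as in B cells. The same ratio had a median of 7.43 over the glycolysis genes and of 1.68 over the genes alike and higher in tumours, 250 of which fell within the range of the melanoma markers. Of the genes described here, Ero1a (4.4), Bnip3 (4.41), Hk2 (5.43), Slc16a3 (5.4), Lilrb4a (3.55), Nfkbiz (4.02), Ahnak (2.65) and Prdm1 (4.91) lay within that range. Vegfa (0.952), Itgb3 (2.05) and Appl2 (1.39) lay below it, and Aldoa (9.35) and Pgk1 (14) lay above it. For genes within the range, RNA of melanoma cells and of the sorted cells cannot be told apart here. Genes outside the range can also hold RNA of other cells. Erythroid markers had ratios of 0.245 to 0.312, and the myeloid genes Arg1 and Il1b had 0.147 and 0.401. The part of such RNA in genes outside the range, Vegfa and Appl2 included, was not tested.

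The letters ACGTG form the core of the hypoxia response element to which HIF-1 binds. Both strands of RefSeq promoters (mouse build GRCm38.p6, from 250 bases before a gene's start to 50 after it) were searched for them, and CACGTG counts as overlapping matches on the opposing strands. They were present in 8 of 16 glycolysis promoters (50%) and 13 of 20 hypoxia response promoters (65%), against 19.7% of all 27025 promoters and 25.7% of those of the genes tested. Over whole classes the share differed little from that background, with 25% of genes alike and higher in tumours, 28.4% of those higher in Tregs only and 21.4% of those higher in B cells only. A match describes letters and shows no binding. For 3 of the genes described above, 60 bases upstream of the start are shown 5′ to 3′ on the gene's strand, with the match in capitals on either strand; Pgk1 is at chrX:106186939-106186998 (plus strand), Bnip3 at chr7:138909584-138909643 (minus) and Ero1a at chr14:45318606-45318665 (minus).
Pgk1: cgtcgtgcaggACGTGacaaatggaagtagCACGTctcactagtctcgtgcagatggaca
Bnip3: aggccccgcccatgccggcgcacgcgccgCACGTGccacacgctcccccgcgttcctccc
Ero1a: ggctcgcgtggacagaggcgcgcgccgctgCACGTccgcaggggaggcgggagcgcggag

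Genes of adhesion and tissue residence also rose in both cell types. Of 27 tested, 22 rose in Tregs and 20 in B cells, and 18 were alike and higher, with median effects of 0.823 and 0.923 and the interaction called higher for 6 and lower for 10. Itgb3, the beta-3 integrin chain, stood at 268, 271 and 278 CPM in tumour Tregs against 47.6, 54.7 and 51 CPM in lymph node Tregs. Its level in tumour B cells was 158, 162 and 170 CPM, against 51, 59.9 and 56.1 CPM in lymph node B cells. All tumour libraries lay above all lymph node libraries of their cell type. The effects were 2.41 ± 0.07 and 1.55 ± 0.07, and the interaction was 0.86 ± 0.10 (edgeR, adjusted p = 1.5e-07). Its partner Itgav, the alpha-v chain, rose in Tregs only, by 2.20 ± 0.07, with an effect of 0.14 ± 0.09 in B cells. Ahnak, a large scaffold protein, rose by 0.79 ± 0.06 in Tregs and by 2.58 ± 0.07 in B cells. Itgb1, the beta-1 chain, was lower in tumour Tregs (-0.34 ± 0.05) and higher in tumour B cells (0.42 ± 0.07).

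Chemokine receptors rose more often than they fell. Of 16 tested, 10 rose and 4 fell in Tregs, 7 rose and 2 fell in B cells, and 6 were alike and higher, with the interaction called higher for 1 and lower for 5. Ccr2, also expressed by monocytes, rose by 1.49 ± 0.07 in Tregs and by 4.65 ± 0.18 in B cells, where it was at most 21.7 CPM and where macrophage markers were also higher. Itga4, the alpha-4 integrin chain, rose by 0.61 ± 0.05 and 0.72 ± 0.05, and the chemokine receptor Cxcr4 by 0.42 ± 0.08 and 0.43 ± 0.07, in Tregs and B cells in that order.

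Appl2 (GRCm39 chromosome 10, bases 83435897 to 83484602, minus strand), the endosomal adaptor that the KO-labelled mice carry as a floxed allele, was itself higher in both tumour groups. It stood at 52.3, 60.6 and 54.2 CPM in tumour Tregs, against 27.5, 23.1 and 19.8 CPM in lymph node Tregs. The B cell libraries held 42.6, 56.1 and 44.1 CPM when sorted from tumours, against 27, 24.9 and 21.7 CPM from lymph nodes. The groups did not overlap in either cell type. Its effects were 1.25 ± 0.12 in Tregs (edgeR, adjusted p = 6.6e-09) and 0.95 ± 0.12 in B cells (edgeR, adjusted p = 1.4e-06), and the interaction of 0.30 ± 0.17 was not called. Of the 9 tested genes for Appl adaptors and early endosomes, 5 rose in Tregs, 2 rose in B cells and none fell in either. Over all genes tested, 16.3% rose in Tregs and 15.7% in B cells.

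Other genes that rose alike were already present in lymph nodes. Mxi1, an antagonist of Myc, rose by 1.03 ± 0.09 in Tregs and 1.57 ± 0.10 in B cells. Ell2, an elongation factor of RNA polymerase II, rose by 1.37 ± 0.12 and 1.06 ± 0.11, and Ube2l6, an enzyme that attaches the interferon-induced modifier ISG15, by 1.25 ± 0.12 and 1.56 ± 0.13. The interactions of Ell2 and Ube2l6 were not called. The linker histone gene H1f2 rose by 1.17 ± 0.08 in Tregs and 1.68 ± 0.07 in B cells, and the linker histone gene H1f0 by 1.45 ± 0.10 and 1.48 ± 0.14. The inhibitory receptor gene Lilrb4a rose by 4.84 ± 0.11 and 3.76 ± 0.13, though it has a near-identical copy, Lilrb4b, and its excess ratio of 3.55 lay within the melanoma range.

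Some genes that rose in both cell types are typical of myeloid cells. Il1b, the gene of the cytokine interleukin-1 beta, stood at 46.3, 44.5 and 52.8 CPM in tumour Tregs against 4.4, 3.66 and 2.58 CPM in lymph node Tregs. For B cells the values were 117, 116 and 105 CPM in tumours, against 2.56, 2.06 and 1.55 CPM in lymph nodes. The tumour groups were above the lymph node groups, and by more in B cells, with an interaction of -2.00 ± 0.25 (edgeR, adjusted p = 1.2e-06). Arg1, the arginase of alternatively activated macrophages, stood at 11.3, 9.94 and 9.24 CPM in tumour Tregs and 57.8, 77.4 and 72.3 CPM in tumour B cells, against at most 0.0832 CPM in lymph node Tregs and 0.183 CPM in lymph node B cells. In tumour Tregs 2 of the 10 macrophage markers rose and 3 fell, while in tumour B cells all 10 rose.

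Large shared falls were fewer than large shared rises: with at least a 2-fold change required in both cell types, 138 genes were alike down, against 520 alike up. Without that requirement, all 10 melanoma and all 5 erythroid markers tested were alike up. The part of RNA from other cells in the difference between rises and falls was not tested. Tcf7, the transcription factor TCF1 of naive and stem-like T cells, stood at 54.3, 47.7 and 46.8 CPM in tumour Tregs against 252, 272 and 267 CPM in lymph node Tregs. B cells had 2.77, 3.77 and 3.36 CPM in tumours, against 10.7, 9.46 and 12.1 CPM in lymph nodes. Every tumour library lay below every lymph node library of its cell type, with effects of -2.41 ± 0.08 and -1.72 ± 0.17. At the median T lineage ratio, Treg RNA would make up 4.24 CPM of the lymph node B cell level, of a difference of 7.45 CPM. The pseudokinase gene Prag1 fell by 3.05 on the log2 scale in Tregs and by 2.11 in B cells, and Ccr6, a homing receptor whose exons overlap another gene over 49.4% of their length, fell by 1.54 in Tregs and by 1.17 in B cells.

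Bcl6, Egr3 and Cxcr5 fell in both cell types as well. Bcl6, the repressor needed for germinal centres and follicular T cells, stood at 11 ± 1.91 CPM in tumour Tregs against 21.4 ± 1.92 CPM in lymph node Tregs, and at 27.4 ± 1.32 CPM in tumour B cells against 60.9 ± 3.21 CPM in lymph node B cells (SD, n = 3 each). Egr3, induced by antigen receptors, had effects of -1.42 ± 0.16 and -1.16 ± 0.10, and neither gene's interaction was called. Cxcr5, the receptor that leads cells into follicles, had effects of -3.25 ± 0.20 in Tregs and -0.71 ± 0.09 in B cells, with an interaction of -2.54 ± 0.23 (edgeR, adjusted p = 3.9e-09). Stromal genes such as Col6a1 and Fstl1 also fell in both, beside the fall of 11 of 11 stromal markers in Tregs and of 6 of 11 in B cells.

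**Figure D3:**
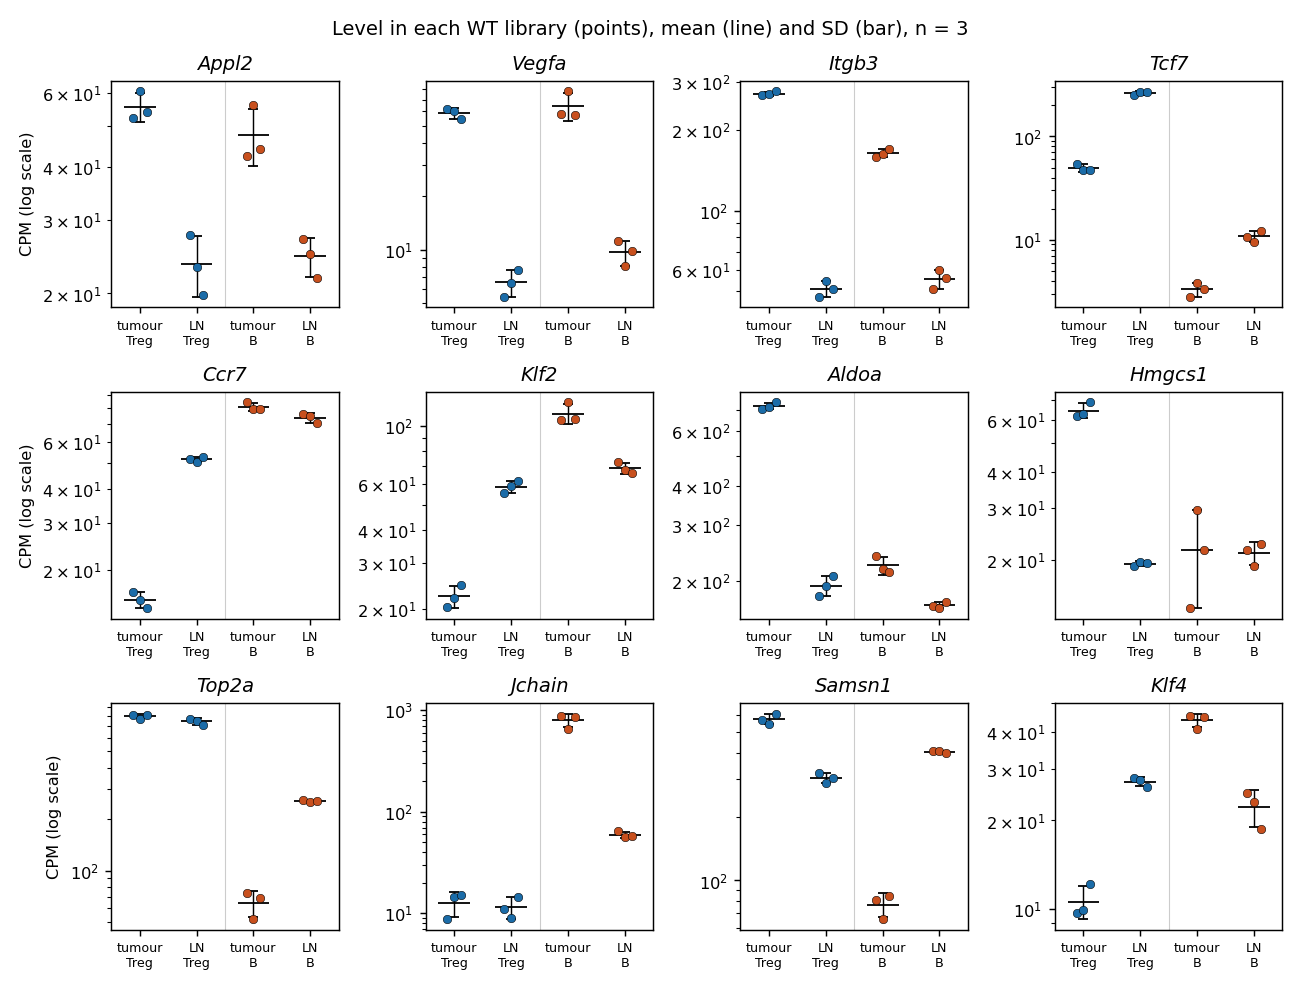
Levels of 12 genes in each WT library (CPM, log axis), with tumour Tregs, lymph node Tregs, tumour B cells and lymph node B cells from left to right, the mean as a line and the SD as a bar (n = 3 per group). Vegfa, Itgb3 and Appl2 were higher in the tumour in both cell types, Ccr7 and Klf2 were lower in tumour Tregs and not in tumour B cells, and Samsn1 and Klf4 moved in opposite directions.

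Genes of the naive and central state fell in tumour Tregs, most of them with a difference from B cells. Of 15 naive and central T cell genes, 14 fell and 1 rose in Tregs, against 4 that fell and 6 that rose in B cells. The interaction was called lower for 13 of the 15 and higher for none; the medians were -1.76 in Tregs and 0.137 in B cells. Of the 15, 4 were alike and lower, Tcf7 among them, 5 changed in Tregs only and 5 were opposite. Of the 13 genes of lymph node homing and egress, 7 fell and 2 rose in Tregs, while 4 fell and 4 rose in B cells, and the interaction was called lower for 7 and higher for 2.

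Ccr7, the receptor for the chemokines of lymph node T cell zones, stood at 16.6, 15.6 and 14.4 CPM in tumour Tregs, against 51.8, 50.5 and 52.6 CPM in lymph node Tregs. Its level in tumour B cells was 84.1, 79.6 and 79.5 CPM, against 76.2, 74.8 and 70.5 CPM in lymph node B cells. The Treg groups were far apart, and the tumour B cell libraries all lay above the lymph node B cell libraries. The effects were -1.73 ± 0.09 in Tregs (edgeR, adjusted p = 2.9e-14) and 0.14 ± 0.08 in B cells, where the effect was not called (edgeR, adjusted p = 0.188), and the interaction was -1.87 ± 0.12 (edgeR, adjusted p = 3.7e-12). At the median B lineage ratio, B cell RNA would make up 0.797 CPM of the lymph node Treg level, of a difference of 36.1 CPM.

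Bcl2, the survival factor, stood at 37, 44 and 38 CPM in tumour Tregs, against 203, 202 and 180 CPM in lymph node Tregs. Among B cells, the tumour libraries held 105, 120 and 114 CPM, against 82.3, 92.7 and 82.5 CPM in the lymph node libraries. It was lower in every tumour Treg library and higher in every tumour B cell library, with effects of -2.30 ± 0.08 and 0.40 ± 0.08 and an interaction of -2.69 ± 0.11 (edgeR, adjusted p = 1.1e-15). Klf2, a factor that maintains S1pr1 expression, had effects of -1.40 ± 0.09 in Tregs and 0.69 ± 0.08 in B cells. Klf3 (-1.49 ± 0.09 and 0.35 ± 0.09), Satb1 (-1.07 ± 0.06 and 0.50 ± 0.06) and Foxp1 (-1.45 ± 0.07 and 0.23 ± 0.06), all regulators of lymphocyte quiescence or identity, took the same opposite directions. The regulator Aff3 fell by 2.63 in Tregs and Igfbp4, which binds insulin-like growth factors, by 3.18, while their B cell effects of 0.10 and -0.22 were not called.

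**Figure D4:**
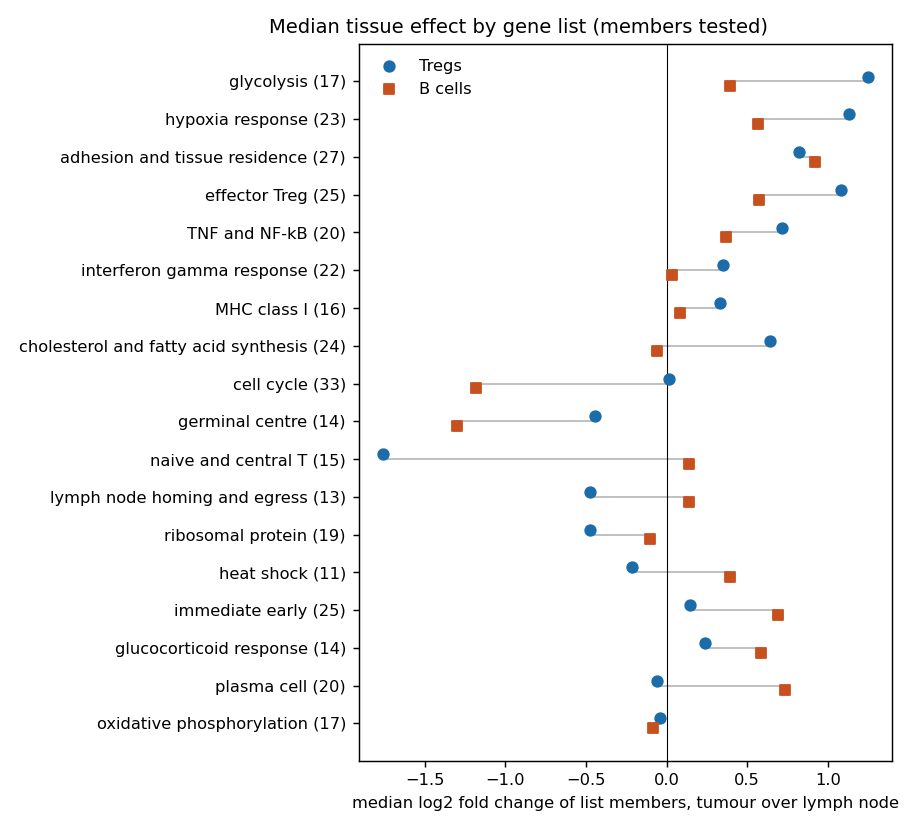
Median tissue effect of each gene list in Tregs and in B cells (log2 tumour over lymph node). The naive and central T cell list lay at -1.76 in Tregs and 0.137 in B cells, cell cycle genes at 0.0132 in Tregs and -1.18 in B cells, and glycolysis genes at 1.25 in Tregs and 0.39 in B cells.

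Genes that rose in Tregs only included enzymes of lipid metabolism. Dgat1, which makes triglycerides, stood at 155, 166 and 144 CPM in tumour Tregs against 22.7, 24.2 and 18.4 CPM in lymph node Tregs. The B cell libraries held 9.85, 10.1 and 9.96 CPM when sorted from tumours, against 8.05, 8.69 and 7.64 CPM from lymph nodes. The Treg groups differed by 2.83 ± 0.09 on the log2 scale, the B cell effect of 0.29 ± 0.14 was not called, and the interaction was 2.54 ± 0.17 (edgeR, adjusted p = 2e-11). Padi2, which converts arginine in proteins to citrulline, rose by 3.02 ± 0.10 in Tregs with an effect of -0.28 ± 0.16 in B cells. Litaf, a regulator of lysosomal sorting, rose by 2.15 ± 0.14 in Tregs with an effect of -0.01 ± 0.13 in B cells.

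Cholesterol and fatty acid synthesis moved in the same way. Of 24 genes, 15 rose and 1 fell in Tregs, against 2 that rose and 4 that fell in B cells. The interaction was called higher for 13 and lower for 1, with medians of 0.642 and -0.0608. Hmgcs1, an early enzyme of the mevalonate pathway, stood at 62, 62.9 and 68.9 CPM in tumour Tregs against 19, 19.6 and 19.5 CPM in lymph node Tregs, and at 13.6, 29.6 and 21.6 CPM in tumour B cells against 21.5, 19 and 22.6 CPM in lymph node B cells. The Treg groups did not overlap, and the B cell groups did. The effects were 1.74 ± 0.15 and 0.01 ± 0.16, with an interaction of 1.73 ± 0.22 (edgeR, adjusted p = 1.2e-06); 12.1% of its exon length overlaps another gene. Cyp51, a later enzyme of the pathway, had the same order (interaction 1.42 ± 0.20), and Idi1 rose in tumour Tregs (1.82 ± 0.15) and fell in tumour B cells (-0.71 ± 0.17). Abca1, the cholesterol exporter, was lower in tumour Tregs (-2.83 ± 0.11) and higher in tumour B cells (0.38 ± 0.06).

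Effector Treg genes rose in tumour Tregs. Of 25 tested, 19 rose and 3 fell in Tregs, against 9 that rose and 3 that fell in B cells. The interaction was called lower for 7 and higher for 3. Fgl2, a secreted suppressor of T cell responses, stood at 436 ± 25.5 CPM in tumour Tregs against 71.9 ± 5.18 CPM in lymph node Tregs (SD, n = 3 each), an effect of 2.60 ± 0.09. Tigit, an inhibitory receptor, rose by 1.18 ± 0.07 in Tregs. Tumour B cells held 6.27 ± 0.872 CPM of it (SD, n = 3), beside a Treg share of 3.05 CPM at the median T lineage ratio. Maf, a transcription factor of effector and follicular T cells, was lower in tumour Tregs (-0.18 ± 0.07) and higher in tumour B cells (1.04 ± 0.09), and the adhesion receptor Cd44 rose in both, by 0.32 ± 0.06 in Tregs and 1.05 ± 0.08 in B cells.

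Genes of TNF and NF-kB signalling rose more often than they fell. Of 20 tested, 15 rose and 3 fell in Tregs, while 10 rose and 2 fell in B cells, and the interaction was called higher for 9 and lower for 4. Traf1, an adaptor of TNF receptors, rose in tumour Tregs (0.82 ± 0.08) and fell in tumour B cells (-0.38 ± 0.11). Gadd45b, induced by NF-kB, rose in Tregs only, by 1.14 ± 0.10, with a B cell effect of 0.13 ± 0.14. Nfkbiz, an atypical inhibitor of NF-kB, rose by 0.81 ± 0.07 in Tregs and 0.78 ± 0.09 in B cells, and the activation marker Cd83 fell by 1.12 in Tregs and by 0.61 in B cells on the log2 scale.

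Ribosomal protein genes fell in Tregs. All 19 fell in Tregs, 4 fell and none rose in B cells, and the interaction was called lower for 15, with medians of -0.473 and -0.105. Rps19 stood at 180 ± 7.3 CPM in tumour Tregs against 289 ± 9.8 CPM in lymph node Tregs, and at 282 ± 45.2 CPM in tumour B cells against 294 ± 14.9 CPM in lymph node B cells (SD, n = 3 each).

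Cell division genes fell in tumour B cells, and most of them by more than in Tregs or without a fall there. Of 33 cell cycle genes, 9 fell and 6 rose in Tregs, against 31 that fell and 1 that rose in B cells. The interaction was called higher for 30 and lower for none, with medians of 0.0132 in Tregs and -1.18 in B cells. The falls were shared in part, as 9 genes were alike and lower, while 16 changed in B cells only and 5 were opposite. Top2a, the topoisomerase of dividing cells, stood at 818, 775 and 818 CPM in tumour Tregs against 775, 753 and 712 CPM in lymph node Tregs. For B cells the values were 73.6, 51.7 and 68.7 CPM in tumours, against 257, 253 and 254 CPM in lymph nodes. The Treg groups met near 775 CPM, while the B cell groups were far apart. The effects were 0.11 ± 0.07 in Tregs, not called, and -1.96 ± 0.08 in B cells (edgeR, adjusted p = 2.5e-16), with an interaction of 2.07 ± 0.10 (edgeR, adjusted p = 5.7e-14). At the median T lineage ratio, Treg RNA would make up 12 CPM of the lymph node B cell level, of a difference of 190 CPM.

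Mki67, the proliferation marker Ki-67, had effects of 0.21 ± 0.05 and -1.99 ± 0.06; the kinetochore motor Cenpe had 0.46 ± 0.08 and -2.05 ± 0.10, in Tregs and B cells in that order. The replication helicase subunit Mcm5 fell in both, by 0.50 on the log2 scale in Tregs and by 1.32 in B cells. Of 14 germinal centre genes, 6 fell and 1 rose in Tregs, against 13 that fell and 1 that rose in B cells. Mybl1, a Myb-family factor of germinal centre B cells, stood at 4.19, 6.59 and 5.11 CPM in tumour Tregs, against 6.16, 4.58 and 5 CPM in lymph node Tregs, and these groups overlapped. B cells had 2.1, 3.46 and 3.47 CPM in tumours, against 36.1, 45.4 and 44.9 CPM in lymph nodes, far apart. The interaction was 3.84 ± 0.30 (edgeR, adjusted p = 2.7e-10). Basp1 (-1.39 ± 0.09) and the migration receptor Gpr183 (-0.96 ± 0.08) also fell in tumour B cells only.

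The letters TTTGAA belong to the cell cycle homology region, an element of many promoters active in late cell division; this motif was added after the results were known. On either strand they were present in 14 of 29 cell cycle promoters (48.3%), against 18.1% of all promoters and 12.6% of those of the genes tested, and in 77 of 376 promoters of genes lower in B cells only (20.5%). The windows below end a few bases after the match closest to the start, on the gene's strand; Top2a is at chr11:99024203-99024262 (minus strand), Cdc20 at chr4:118437352-118437411 (minus) and Kif11 at chr19:37376313-37376372 (plus), again in GRCm38.p6 from RefSeq with the match in capitals.
Top2a: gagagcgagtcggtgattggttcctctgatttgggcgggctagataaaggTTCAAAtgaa
Cdc20: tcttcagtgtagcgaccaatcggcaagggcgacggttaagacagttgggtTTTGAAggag
Kif11: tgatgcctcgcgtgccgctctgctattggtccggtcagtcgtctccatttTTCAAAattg

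Plasma cell genes rose in tumour B cells. Of 20 tested, 4 rose and 8 fell in Tregs, against 17 that rose and 2 that fell in B cells, and the interaction was called lower for 16 and higher for 1. Jchain, which joins IgA and IgM units, stood at 8.74, 14.5 and 15.1 CPM in tumour Tregs against 11.1, 8.98 and 14.6 CPM in lymph node Tregs. Its levels in B cells were 878, 659 and 865 CPM in tumours against 64.4, 56.6 and 57.3 CPM in lymph nodes. The Treg groups overlapped and the B cell groups were far apart, with effects of 0.14 ± 0.19 in Tregs and 3.75 ± 0.12 in B cells (interaction adjusted p = 2.9e-12, edgeR). Igha, the IgA heavy chain, stood at 835, 703 and 826 CPM in tumour B cells against 8.7, 7.31 and 9.27 CPM in lymph node B cells.

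Genes of protein folding moved in both directions in tumour B cells. Of 17 genes of the unfolded protein response and endoplasmic reticulum, none rose and 4 fell in Tregs, against 5 that rose and 6 that fell in B cells. Over all genes tested, 16.3% rose and 19.1% fell in Tregs, against 15.7% and 14.2% in B cells. Calr, the chaperone calreticulin, stood at 1490 ± 40.3 CPM in tumour B cells against 2067 ± 87.3 CPM in lymph node B cells (SD, n = 3 each), and Pdia3, a disulphide isomerase, had an effect of -0.03 ± 0.06 in Tregs and -0.73 ± 0.06 in B cells.

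Antibody classes did not all move together. Ighg2c rose by 3.93 ± 0.09 in tumour B cells and Ighg2b by 1.96 ± 0.07, whereas Ighg1 fell to 130, 111 and 131 CPM in tumour B cells, against 518, 496 and 521 CPM in lymph node B cells. Heavy chain genes share near-identical stretches, so counts could be split between them. Prdm1, the regulator Blimp-1 of plasma cells and of effector Tregs, rose in both, by 1.15 ± 0.11 in Tregs and 1.83 ± 0.18 in B cells.

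Most immediate early genes rose in tumour B cells, and most had the lower tissue effect in Tregs. Of 25 immediate early genes, 10 rose and 8 fell in Tregs, against 20 that rose and 2 that fell in B cells, and the interaction was called lower for 16 and higher for 2. Alike changes numbered 8 up and 2 down, and 6 genes were opposite. Macrophage markers were higher in the same tumour B cell libraries, and their part in this was not tested. Jun, a subunit of the factor AP-1, stood at 303, 300 and 301 CPM in tumour Tregs against 378, 393 and 378 CPM in lymph node Tregs. B cells had 872, 835 and 842 CPM in tumours, against 250, 246 and 235 CPM in lymph nodes. It was lower in all tumour Treg libraries and higher in all tumour B cell libraries, with effects of -0.34 ± 0.05 and 1.80 ± 0.05 and an interaction of -2.15 ± 0.07 (edgeR, adjusted p = 7e-18). Its partner Fos had -0.59 ± 0.07 and 1.02 ± 0.07, and Ppp1r15a, which restores translation after stress, had -0.32 ± 0.04 and 1.38 ± 0.04.

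Of 11 heat shock genes, 2 rose and 7 fell in Tregs, against 6 that rose and 1 that fell in B cells, and the interaction was called lower for 8 and higher for none. The cochaperones Hsph1 (-0.42 ± 0.05 in Tregs, 0.70 ± 0.05 in B cells) and Dnajb1 (-0.33 ± 0.07 and 1.17 ± 0.07) went in opposite directions. Hspa1b, an inducible HSP70 with a near-identical copy in Hspa1a, rose in both, by 0.45 ± 0.04 in Tregs and 2.46 ± 0.05 in B cells. The heat shock element letters TTCNNGAA were in 2 of 8 heat shock promoters (25%), against 7.08% of promoters of the genes tested. The AP-1 letters TGANTCA were in 0 of 21 immediate early promoters, against 4.95%.

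Opposite changes with tumour Tregs higher included those of Samsn1 and Irf8. Samsn1 (GRCm39 chromosome 16, bases 75655681 to 75819169, minus strand), an adaptor that restrains B cell activation, stood at 570, 545 and 610 CPM in tumour Tregs against 321, 287 and 303 CPM in lymph node Tregs. Its level in tumour B cells was 81.3, 65.6 and 84.2 CPM, against 407, 406 and 397 CPM in lymph node B cells. No tumour library overlapped its lymph node group, and the effects were 0.92 ± 0.06 and -2.38 ± 0.07 (interaction adjusted p = 1.9e-18, edgeR). Irf8, an interferon-regulated factor of B cell and myeloid development, stood at 104, 99.6 and 108 CPM in tumour Tregs against 46.6, 54.7 and 55.9 CPM in lymph node Tregs. Among B cells, the tumour libraries held 530, 498 and 521 CPM, against 842, 803 and 878 CPM in the lymph node libraries. It was thus higher in all tumour Treg libraries and lower in all tumour B cell libraries, by 0.99 ± 0.07 and -0.70 ± 0.06; at the median B lineage ratio, B cell RNA would make up 9.08 CPM of the lymph node Treg level. Actg1, a cytoplasmic actin, had effects of 0.76 ± 0.05 and -0.65 ± 0.05, and the G protein subunit Gna15 had 1.08 ± 0.12 and -0.70 ± 0.18.

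In the reverse direction, Klf4, a factor of quiescence, stood at 9.67, 9.94 and 12.2 CPM in tumour Tregs against 27.9, 27.4 and 26 CPM in lymph node Tregs. The B cell libraries held 45.4, 41 and 44.9 CPM when sorted from tumours, against 24.9, 23.1 and 18.7 CPM from lymph nodes. The groups were apart in both cell types, with effects of -1.35 ± 0.13 and 0.98 ± 0.12. Il6st, the signalling chain gp130 of the interleukin-6 receptor, had effects of -0.93 ± 0.07 and 0.78 ± 0.09, and Rhob, a small GTPase, had -1.29 ± 0.17 and 1.58 ± 0.15. Nod1, a sensor of bacterial cell walls, had -1.56 ± 0.17 and 1.23 ± 0.17. Macrophage markers rose with these genes in tumour B cells, and their part in the B cell effects was not tested.

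Interferon gamma response and antigen presentation genes split between the cell types. Of 22 interferon gamma response genes, 14 rose and 1 fell in Tregs, against 8 that rose and 6 that fell in B cells, with the interaction called higher for 12 and lower for 3. Of 16 MHC class I genes, 11 rose and none fell in Tregs, against 5 that rose and 3 that fell in B cells. Tap1, a subunit of the peptide transporter, stood at 238 ± 3.12 CPM in tumour Tregs against 146 ± 15.1 CPM in lymph node Tregs, and at 136 ± 11.4 CPM in tumour B cells against 142 ± 7.56 CPM in lymph node B cells (SD, n = 3 each). Nlrc5, the activator of MHC class I genes, rose by 0.26 ± 0.06 in Tregs and had an effect of -0.28 ± 0.07 in B cells. MHC class II genes fell more often in B cells, with 3 of 11 that fell and 4 that rose in Tregs, against 7 that fell and 1 that rose in B cells. H2-Ab1, a class II beta chain, had effects of 0.42 ± 0.06 in Tregs and -0.18 ± 0.06 in B cells. At the median B lineage ratio, B cell RNA would make up 72.7 CPM of its level in lymph node Tregs and 7.97 CPM in tumour Tregs. Its lymph node minus tumour difference in Tregs was -35.1 CPM, so its Treg effect is uncertain. The core of interferon response elements, GAAA repeats with 2 bases between them, was in 10 of 18 interferon gamma promoters (55.6%), against 3.19% of promoters of the genes tested.

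The same contrasts were fitted to the 12 KO-labelled libraries, which share no library with the WT fit. Appl2, whole-gene and scaled to total counts only, stood at 24.9, 20.5 and 26.5 CPM in KO-labelled tumour Tregs against 53.7, 62 and 55 CPM in WT tumour Tregs. In lymph node Tregs it stood at 27, 23.1 and 28.6 CPM in KO-labelled libraries against 27.3, 22.9 and 19.6 CPM in WT libraries, so the groups overlapped there. In KO-labelled B cells it stood at 15.8, 15.4 and 10.7 CPM in tumours and at 11.2, 10.4 and 11.2 CPM in lymph nodes, below every WT B cell library. Genotype is therefore given as labelled. Which exons the allele removes is not stated, so whole-gene counts may not show its loss in Tregs. Cre in these mice is under the control of Foxp3, and the cause of the lower level in KO-labelled B cells was not tested.

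Most interactions had the same sign in the KO-labelled libraries, where 4647 of 15431 genes were called (30.1%). Of 3528 genes called in WT and tested in both, 2536 (71.9%) had the same sign, 1507 (42.7%) had it and were called, and 364 were called with the opposite sign. Of 589 opposite genes, 430 (73%) kept the sign of the interaction and 89 (15.1%) were again opposite. Of 1832 alike genes, 688 (37.6%) were again alike. Ccr7 (-1.37, against -1.87 in WT), Aldoa (1.59, against 1.48), Bcl2 (-2.39, against -2.69) and Samsn1 (1.28, against 3.30) were among those called in both with the same sign. Markers of other cells differed between the 2 sets of libraries. Melanoma markers had a median Treg effect of 5.85 in WT (10 tested) and 0.979 in KO-labelled libraries (5 tested). CD8 T and NK cell markers had a median B cell effect of -0.147 in WT and 3.8 in KO-labelled libraries. The part of such cells in how many genes recurred was not tested.

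For cell cycle genes and some other lists the calls were not those of WT. Of the 33 cell cycle genes, the interaction in KO-labelled libraries was called higher for none and lower for 6, against 30 and none in WT. Higher and lower calls for plasma cell genes were 6 and 4, against 1 and 16 in WT. For interferon gamma response genes they were 6 and 10, against 12 and 3. MHC class II genes had 1 and 7, against 6 and 3, and ribosomal protein genes 1 and 3, against 0 and 15. TNF and NF-kB genes had 5 and 7, against 9 and 4. Other lists stayed closer to WT, such as glycolysis genes with 13 and 0, against 14 and 0. Top2a had an interaction of -0.68 ± 0.08 in KO-labelled libraries and 2.07 ± 0.10 in WT, and the Treg effect of Top2a was -1.06 in KO-labelled libraries and 0.11 in WT. Jchain likewise had interactions of 1.02 in KO-labelled libraries and -3.62 in WT. The difference between genotypes in these interactions was not tested. T lineage markers had a median tissue effect of 3.56 in KO-labelled B cells and -1.46 in WT B cells, and their part in the B cell effects was not tested. Tcf7 had B cell effects of 2.30 in KO-labelled libraries and -1.72 in WT.

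**Figure D5:**
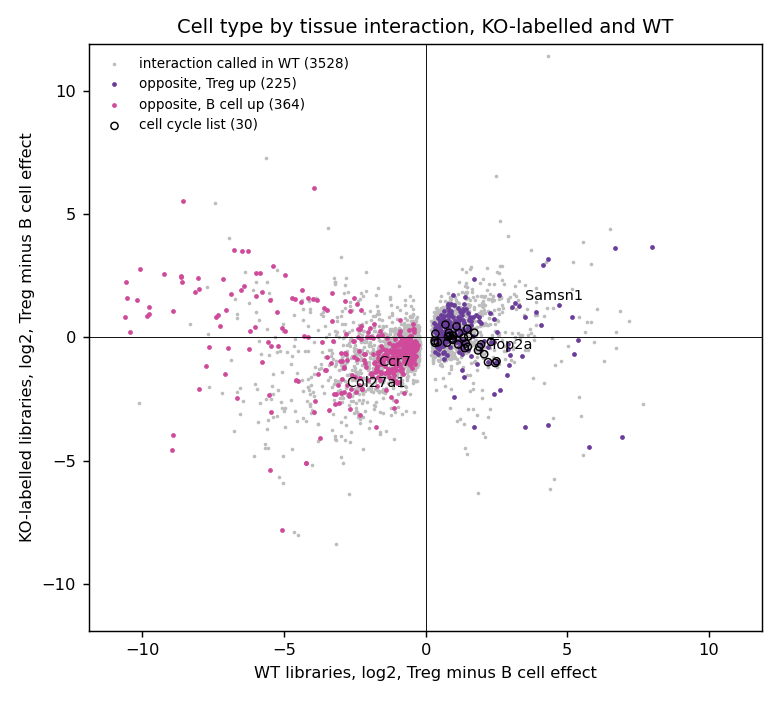
Interaction (log2, Treg tissue effect minus B cell tissue effect) in KO-labelled libraries (vertical axis) against WT libraries (horizontal axis) for genes called in WT. Of 3528 genes, 2536 lie in the quadrants where the signs are equal.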

How the data were processed

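The labels name TRIzol for the RNA of the sorted cells and a stranded kit for mRNA libraries. The deposited table holds raw read counts of 56791 genes in 24 libraries; the submitters' processing notes name fastp 0.23.4, STAR 2.5.3a, featureCounts and the builds GRCh38 and GRCm39, and the gene coordinates in the table are those of GRCm39. No source used here gives the setting for strand, so antisense partners cannot be told apart. Between 71.2% and 75.4% of counts from 1 to 10 were even, as when both mates of a pair are counted, which makes the effective depth lower than the totals; counts divided by 2 were an alternative.

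Counts of the 12 WT libraries were fitted with 1 coefficient per group (R 4.3.3, edgeR 4.0.16, filterByExpr, TMM, glmQLFit, glmQLFTest), tested on simulated data first; DESeq2 1.42.0 was an alternative. Expressed means at least 5 CPM in 1 tissue. Genes were named by rule: per class, the largest effects among genes with at least 10 CPM and groups that do not overlap; per list, the smallest interaction p and the largest shared effects; and Foxp3 and Appl2 as checks; some named genes are not reported here. The shares of Treg or B cell RNA multiply a gene's mean level in the other cell type by the median marker ratio. The 49 gene lists, the comparison and the alternatives were chosen with earlier results of these data known. Replicate numbers did not pair the libraries: over 18 same-numbered pairs, deviations from group means correlated between -0.181 and 0.0596. Replicates differed by 2.72 to 7.42 in chi-square per gene. Counting both mates of a pair raises this value, so it does not show whether replicates were separate animals. Every library was counted as a replicate of its own.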

Additional observations from a re-analysis of the deposited data

Results flagged for a closer look

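The test of the interaction itself, edgeR's quasi-likelihood test, found a difference in tissue effect between Tregs and B cells for 3598 genes. Among the named genes whose tissue effects were called in opposite directions, those with the higher effect in Tregs had interactions of 3.3 (Samsn1), 1.89 (Pakap), 2.53 (Idi1), 1.78 (Gna15), 1.69 (Irf8), 1.42 (Actg1), 1.33 (Ggnbp1) and 1.24 (Gvin2) on the log2 scale. Gvin2 has near-identical copies, and 36.5% of the exon length of Ggnbp1 overlaps another gene, so both values are uncertain. Those with the higher effect in B cells had interactions of -3 (Col27a1), -2.87 (Rhob), -2.79 (Nod1), -2.23 (Mturn), -2.34 (Klf4), -1.71 (Il6st), -1.68 (Ms4a6b) and -1.78 (Arl5c). With 3 libraries per group, Dixon's test of single values was not applied.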

How the results depend on the processing

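Calls depended mainly on the threshold. At an adjusted p under 0.01 the interaction was called higher for 997 and lower for 1336 genes, 689 were alike up and 611 alike down, 115 and 197 were opposite with Tregs up and with B cells up, and 362 were higher in Tregs only. With at least a 2-fold change at 0.05 these counts were 545 and 988, 520 and 138, 14 and 96, and 223, with 336 lower in Tregs only, 307 higher and 167 lower in B cells only. The cause of these shifts is the stricter rule itself. With the replicate block, which the pairing check does not call for, the interaction was called higher for 1486 and lower for 1943 genes, against 1554 and 2044. Leaving out 1 library at a time gave 1340 to 1877 higher and 1565 to 1851 lower interactions, 917 to 1044 alike up, 838 to 1000 alike down, 172 to 297 and 251 to 335 opposite, and 465 to 700 higher and 571 to 778 lower in Tregs only. Without the 250 genes within the melanoma range, an alternative chosen after seeing the data, 802 remained alike up. The erythroid markers, Arg1 and Il1b are among the 802, so this step does not remove RNA of other cells. For each named gene, the smaller of both tissue effects was followed if it was alike, and otherwise the interaction if called. None of these values changed sign. Upper-quartile scaling kept all 330 called, while other alternatives lost the call of 3 (DESeq2) to 13 (without tumour Treg replicate 2). The other alternatives (DESeq2, upper-quartile scaling, no filter, counts divided by 2, shared spread over all 24 libraries) kept each of these counts within 1.5 times. Each cell type fitted alone did so for the alike and opposite counts, the only ones it gave. The balance of counts did turn: more interactions were higher than lower with no filter (1955 and 1731), with counts divided by 2 (1828 and 1770) and in 7 of 12 fits without 1 library. Likewise, 670 and 635 genes were higher and lower in Tregs only with no filter, and 666 and 649 with counts divided by 2, against 557 and 802. The cause was not tested. Without tumour B cell replicate 2 and lymph node Treg replicate 1 together, also chosen after seeing the data, the interaction was called higher for 1449 and lower for 1975. The chi-square per gene does not single out lymph node Treg replicate 1 over replicate 3, which this fit kept. Depth limits genes under about 5 CPM, and 3 libraries per group limit every error given.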

Other observations

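Inhibitory receptors did not move as 1 group. Of 20 tested, 9 rose and 9 fell in tumour Tregs, against 7 that rose and 2 that fell in tumour B cells, and the interaction was called lower for 10 and higher for 1. Havcr2, the receptor TIM-3, rose by 2.28 ± 0.11 in Tregs and stood at 106 ± 5.75 CPM in tumour Tregs against 21.8 ± 3.49 CPM in lymph node Tregs (SD, n = 3 each). Btla, an inhibitory receptor of lymphocytes, fell by 1.53 on the log2 scale in Tregs only, with a B cell effect of -0.02 ± 0.06. Vsir, the checkpoint protein VISTA, was lower in tumour Tregs (-0.39 ± 0.08) and higher in tumour B cells (1.87 ± 0.13), where macrophage markers were also higher.

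Of 20 genes of IL-2, STAT5 and cytokine signalling, 10 rose and 3 fell in Tregs and 8 rose and 6 fell in B cells, and the interaction was called higher for 6 and lower for 4. Stat3, a transducer of interleukin-6 and interleukin-10 signals, rose in Tregs only, by 0.91 ± 0.05, with a B cell effect of -0.12 ± 0.05. Jak3, the kinase of the common gamma chain, rose in tumour Tregs (0.70 ± 0.07) and fell in tumour B cells (-0.57 ± 0.09). Pim1, a kinase induced by cytokines, rose in both, by 0.96 ± 0.07 in Tregs and 0.84 ± 0.09 in B cells, with a tumour excess ratio of 5.31 within the melanoma range. Nr3c1, the glucocorticoid receptor, rose in Tregs only (0.96 ± 0.06, against -0.11 ± 0.06 in B cells), while its target Per1 rose in both (0.65 ± 0.08 and 0.90 ± 0.08).

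Transcription factors outside these groups included some with large Treg effects. Bhlhe41 stood at 17.1, 18.5 and 17.3 CPM in tumour Tregs against 0.88, 0.666 and 1.21 CPM in lymph node Tregs, and at 21.6, 23.3 and 20.4 CPM in tumour B cells against 6.32, 9.46 and 7.91 CPM in lymph node B cells. It rose in both cell types, with an interaction of 2.78 ± 0.30 (edgeR, adjusted p = 1.1e-07). Tbx21, the factor T-bet, stood at 23.6, 19 and 19.9 CPM in tumour Tregs against 2.29, 1.66 and 3.03 CPM in lymph node Tregs, beside the higher CD8 T and NK cell markers given above. Among apoptosis regulators, Pmaip1, the BH3 protein NOXA, rose in both (1.06 ± 0.06 and 0.82 ± 0.08), and its excess ratio of 3.83 was within the melanoma range. Bbc3, the BH3 protein PUMA, was lower in tumour Tregs (-0.63 ± 0.22) and higher in tumour B cells (2.01 ± 0.33). Its B cell effect rests on low levels, with a lymph node minus tumour difference of -2.74 CPM.

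Other groups of genes moved to differing degrees. Over all genes tested, 16.3% rose and 19.1% fell in Tregs, and 15.7% rose and 14.2% fell in B cells. Of 22 lysosome and autophagy genes, 9 rose and 1 fell in Tregs and 12 rose and 1 fell in B cells, and Ctsz, a cathepsin, rose in Tregs only (0.81 ± 0.10, against -0.03 ± 0.09 in B cells). Of 16 genes of lipid uptake and storage, 6 rose and 5 fell in Tregs and 8 rose and 2 fell in B cells, and Fabp5, a fatty acid carrier, rose in B cells only (0.16 ± 0.08 in Tregs, against 1.48 ± 0.12 in B cells). Of 14 glucocorticoid response genes, 7 rose and 4 fell in Tregs and 11 rose and 1 fell in B cells. Txnip, which restrains glucose uptake, was lower in tumour Tregs (-0.34 ± 0.06) and higher in tumour B cells (1.28 ± 0.06), though 19.4% of its exon length overlaps another gene. Of 17 oxidative phosphorylation genes, 2 rose and none fell in Tregs, and none rose and 3 fell in B cells. The oxidative phosphorylation counts were close to or below the shares over all genes tested. Rises in the lysosome and autophagy, lipid and glucocorticoid lists were above those shares in both cell types.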
